A study of Danio rerio with 6 samples.

Results

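The genes described here encode the receptors for the fast and modulatory neurotransmitters: GABA, glycine, glutamate, acetylcholine, adrenaline and noradrenaline, dopamine, and serotonin. Members were chosen by gene symbol (gabr, gria, grin1 to grin3, grik, grm, glra and glrb, chrn, chrm, adra and adrb, drd, and htr) and by a sum of at least 10 read counts over the 6 libraries. Of 143 matching symbols, 137 met that minimum, out of 25920 genes in the deposited table. The 6 left out were adrb3b, chrm3b, chrnb1l, drd6b, gabrb2l and htr5aa.

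The libraries came from zebrafish carrying the Tg(myl7:mCherry) transgene, in which the myl7 promoter drives a red fluorescent protein in heart muscle cells. All fish carried it, controls included. From 60 to 96 hours after fertilisation the fish were kept in the solvent DMSO (3 libraries) or in 100 µM DAPT (3 libraries), an inhibitor of gamma-secretase that blocks release of the intracellular part of Notch receptors. Hearts are given as the tissue, although the series text speaks of embryos. The sources do not tell whether replicates were separate batches of fish, so a p-value here covers the spread among 3 libraries a group and that spread may be technical.

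Total counts ran from 20542549 to 21808613 per library. Heart muscle markers were abundant in every library, but so were markers of tissues outside the heart. Skeletal muscle markers summed to between 10861 and 16013 TPM (transcript level corrected for length and depth) and retina markers to between 1355 and 6362. No listed marker of neurons, glia, retina, skeletal muscle, heart muscle, autonomic neurons or endothelium was at 0 in every library. The libraries thus held markers of tissues outside the heart that the labels name. In such bulk RNA, fewer cells of a type and less RNA per cell cannot be told apart.

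Ligand-gated receptors are ion channels that open within milliseconds of binding a transmitter, and GABA-A, glycine and nicotinic receptors are rings of related subunits whose mix sets their properties. The metabotropic, muscarinic, adrenergic, dopamine and most serotonin receptors signal through G proteins. In vertebrates the muscle nicotinic receptor carries the command from motor nerve to muscle, while muscarinic and beta adrenergic receptors let the vagus nerve slow and catecholamines speed the heart. Zebrafish often hold a pair of copies, marked a and b, of a gene that is single in mammals.

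The receptor genes were mostly lower with DAPT. Of the 137, 120 passed the filter on low counts and were tested by edgeR's quasi-likelihood test, with p adjusted by the Benjamini-Hochberg method over all 22092 genes tested and a threshold of 0.05. 70 members (58.3% of those tested) were called lower, where 24.3% of all genes tested were. Another 7 (5.83%) were called higher, where 22.4% of all genes were, and 43 did not pass. The members' log2 fold changes, DAPT against DMSO, ran from -2.61 to 1.72 with a median of -0.69, and the median over all genes tested was -0.00. A fall to 50% or less, a log2 fold change of -1 or below, was reached by 26 of the 70 (21.7% of members tested), against 5.69% of all genes. A rise of that size was reached by 4 of the 7 (3.33% of members tested), close to the 2.4% of all genes. Counted without a test, every DAPT library lay below every DMSO library in 74 members (61.7%), against 29% of all genes, and above in 9 members, against 27.8% of all genes.

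The remaining 17 members had too few reads to pass the filter. With no filter all 137 could be tested: 71 were lower (51.8%) and 7 higher (5.11%), against 22.3% and 20.6% of 24308 genes, with a median of -0.63. The only added call was chrm1a, at -1.57 (adjusted p = 0.0276). DMSO replicate 3 stood apart: it held the highest of the 3 DMSO values in 80 of the 137 members (58.4%), against 35.6% of all genes tested. Its marker sums differed too. Retina markers summed to 6362 TPM, against 4672 and 3855 in DMSO replicates 1 and 2, and neuron markers to 945, against 754 and 796. Skeletal muscle markers summed to 10861, against 13965 and 14102, and heart muscle markers to 5255, against 6260 and 6359. Their part in the receptor values was not tested. Without DMSO replicate 3, 58 of 120 members were lower and 6 higher, with a median of -0.54, against 22.9% and 21.3% of 22289 genes.

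**Figure D1:**
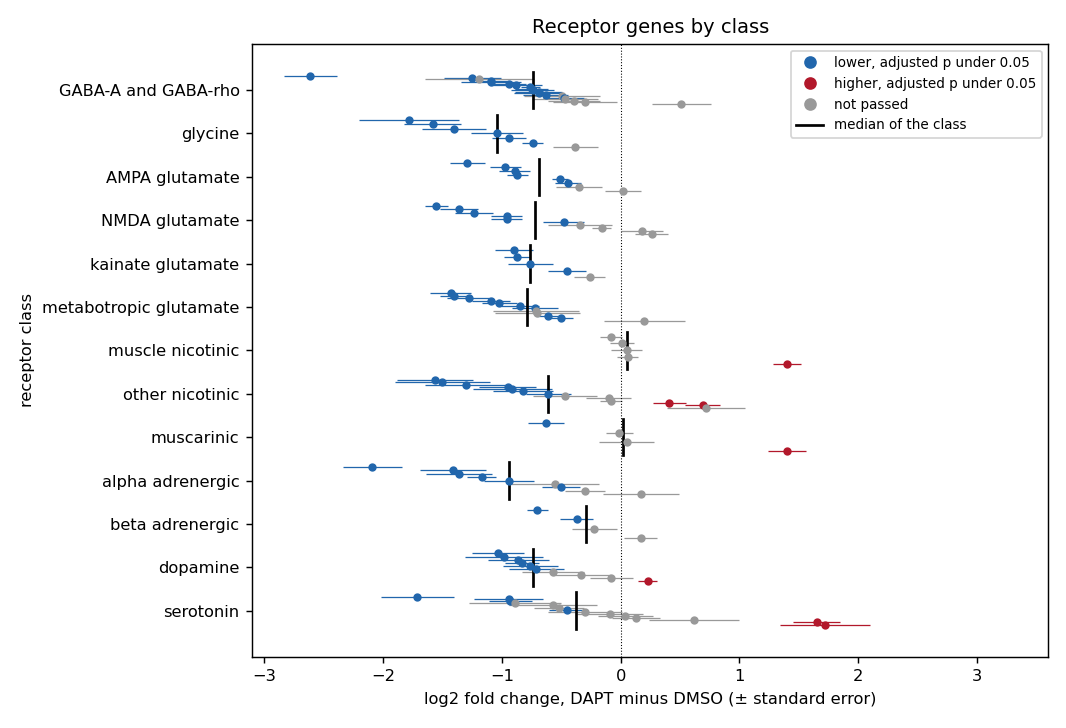
Each point is a receptor gene that passed the filter, placed by its log2 fold change (DAPT minus DMSO, with its standard error) in rows by receptor class, coloured by whether it was called lower, higher or did not pass. Glycine, glutamate and GABA classes lie mostly left of 0, with class medians between -0.69 and -1.04, while the muscle nicotinic row sits near 0 with a single gene at 1.40.

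Ion channel receptors for GABA, the main inhibitory transmitter of the brain, were lower in 13 of 19 tested members (68.4%) and higher in none. The other 6 did not pass. Among all genes tested, 24.3% were lower and 22.4% higher. The GABA class had a median of -0.74. Without DMSO replicate 3, 10 of the 19 were lower and 1 higher, with a median of -0.56. Type B receptor genes for GABA are not members and are given with the pathway lists below. The deepest fall of all receptor genes was in gabra6a (gene 393704), an alpha subunit known in mammals from cerebellar granule cells. In CPM (counts corrected for depth by the TMM method) it read 9.23, 7.93 and 13.8 in the DMSO libraries and 1.91, 1.61 and 1.55 with DAPT. The groups did not overlap, and the means of 10.3 ± 3.07 and 1.69 ± 0.194 (SD, n = 3 each) gave a log2 fold change of -2.61 ± 0.22 (SE, edgeR adjusted p = 2.17e-06).

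Of the beta subunit genes, whose products help form the GABA binding site, gabrb2 was almost the same in the libraries of a group, at 13.5, 13.9 and 13.5 CPM against 7.98, 8.25 and 7.9 (-0.76 ± 0.08, edgeR adjusted p = 1.72e-05). Its groups were apart. gabrb4 gave the values 1.48, 0.95 and 2.1 against 2.15, 2.34 and 1.97 CPM, groups that overlapped, and its 0.51 ± 0.25 did not pass (edgeR adjusted p = 0.12). It was called higher without DMSO replicate 3, at 0.82 (edgeR adjusted p = 0.0142). The delta subunit gene gabrd, whose product sits mostly outside synapses in mammals, fell by 0.94 on the log2 scale (SE 0.14), gabrg1 by 1.25 (SE 0.24) and the rho subunit gene gabrr3a by 1.09 (SE 0.25).

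Glycine receptors carry inhibition in the spinal cord, brainstem and retina. They were lower in 6 of 7 genes (85.7%), against 24.3% of all genes, with a median of -1.04. Only glra4a, at -0.38 (edgeR adjusted p = 0.124), did not pass. The beta subunit, which ties the channel to the scaffold protein gephyrin, is encoded by glrba and glrbb. glrbb, the most abundant at 18 ± 2.57 TPM in DMSO, read 20.1, 23.7 and 25.5 CPM against 14.2, 13.3 and 14 (-0.74 ± 0.09, edgeR adjusted p = 4.28e-05), and glrba was at -1.40 ± 0.27. Neither pair of groups in glrbb nor in the alpha subunit gene glra3 overlapped. glra3 read 4.11, 4.42 and 7.66 CPM against 1.77, 1.76 and 1.88 (-1.58 ± 0.24, edgeR adjusted p = 0.00023). DMSO replicate 3 was the highest DMSO library in all 7 glycine receptor genes. In glra4b it read 3.15 CPM where the other DMSO libraries read 1.29 and 1.14 and the DAPT libraries 0.622, 0.439 and 0.564 (-1.78 ± 0.42, edgeR adjusted p = 0.00433). The remaining alpha genes that fell were glra1, at -0.94 ± 0.14, and glra2, at -1.04 ± 0.22.

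Ionotropic glutamate receptors are the main excitatory channels of the brain. They were lower in 16 of 23 genes (69.6%) and higher in none, with a median of -0.76. Among all genes tested, 24.3% were lower and 22.4% higher. DMSO replicate 3 was the highest DMSO library in 17 of the 23. Without it, 14 of 23 were lower, against 22.9% of all genes, with a median of -0.49. NMDA receptors need the subunit encoded by grin1 in every channel, and the zebrafish copies were the most abundant receptor genes of the whole set, at 52.2 ± 14.3 TPM for grin1b and 26.8 ± 4.35 TPM for grin1a in DMSO. grin1a (gene 767745) read 68.7, 67.1 and 86.4 CPM in DMSO and 25.5, 23.3 and 26.8 with DAPT, groups far apart (-1.55 ± 0.10, edgeR adjusted p = 1.72e-07). grin1b (gene 100005675) read 128, 117 and 185 against 72.7, 74.3 and 74.2 CPM (-0.96 ± 0.13, edgeR adjusted p = 9.92e-05). Here too the groups were apart, and DMSO replicate 3 was well above the other DMSO libraries. The ratio of grin1a to grin1b within a library, a measure picked after the values were seen and so given with no test, was 0.537, 0.574 and 0.468 in DMSO and 0.351, 0.314 and 0.362 with DAPT.

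Of the glutamate-binding NMDA subunits, grin2aa and grin2ab, the copies of the subunit gene that in mammals rises as synapses mature, fell, as did grin2da (-0.96 ± 0.13) and grin2cb (-0.48 ± 0.17), both named after their values were seen. The grin2cb call was lost when any 1 library other than DMSO replicate 2 was left out, with an adjusted p of up to 0.129 over all alternatives. grin2aa read 11, 12.5 and 16.4 CPM against 6.6, 4.59 and 5.74 (-1.23 ± 0.16, edgeR adjusted p = 6.86e-05). grin2ab read 12.6, 13.2 and 18.1 against 5.55, 4.68 and 6.86 (-1.36 ± 0.16, edgeR adjusted p = 3.18e-05). grin2bb, of the subunit that prevails early in mammalian development, was at -0.16 ± 0.08 and did not pass (edgeR adjusted p = 0.144). The glycine-binding subunit genes grin3a and grin3ba, at 0.26 and 0.18, did not pass either. grin3a, chosen after its values were seen, nevertheless had all DAPT libraries (3.87, 3.95 and 4.47 CPM) above all DMSO libraries (3.16, 3.47 and 3.6).

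AMPA receptors, which carry most fast excitation, were lower in 6 of 8 genes (75%), against 24.3% of all genes, with a median of -0.69. gria3a read 42.2, 40.9 and 63.5 CPM against 21, 17.9 and 21.1 (-1.29 ± 0.15, edgeR adjusted p = 2.39e-05), and gria4b 26, 27.7 and 32.4 against 16.5, 14.8 and 15.8 (-0.87 ± 0.09, edgeR adjusted p = 1.09e-05). Neither showed any overlap between the groups. The copies of gria2, whose subunit makes the channel nearly impermeable to calcium in mammals, fell by 0.44 (gria2a, SE 0.11) and 0.51 (gria2b, SE 0.07) on the log2 scale. gria1a, at 0.02, and gria1b, at -0.35, did not pass. Of the kainate receptor genes 4 of 5 were lower (80%), against the same 24.3% of all genes. grik5, of the auxiliary high-affinity type, had the smallest p, with 8.85, 9.4 and 9.35 CPM against 4.88, 4.64 and 5.55, groups well apart (-0.87 ± 0.11, edgeR adjusted p = 4.51e-05). grik1a was at -0.90 ± 0.16 and grik1b at -0.76 ± 0.19, and grik2, at -0.26, did not pass. The call on grik4 (-0.45 ± 0.16, edgeR adjusted p = 0.0315) was lost when DAPT replicate 1, DAPT replicate 2 or any DMSO library was left out, with an adjusted p of up to 0.126 without DAPT replicate 2.

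Metabotropic glutamate receptors signal slowly through G proteins. They were lower in 9 of 12 genes (75%), against 24.3% of all genes, and higher in none, against 22.4%. The class median was -0.79. The receptors of the second group, which damp transmitter release through inhibitory G proteins, fell throughout. grm2b read 12, 15.1 and 13.1 CPM against 4.54, 5.66 and 4.98 (-1.40 ± 0.12, edgeR adjusted p = 2.29e-06), with grm2a at -1.09 ± 0.16 and grm3 at -1.28 ± 0.18. grm6b, a copy of the gene whose product senses glutamate on retinal ON bipolar cells, read 10.3, 9.5 and 13.9 CPM against 6.02, 5.66 and 5.03 (-1.02 ± 0.15, edgeR adjusted p = 0.00015). grm8b read 4.88, 4.23 and 4.2 against 1.86, 1.71 and 1.36 (-1.43 ± 0.17, edgeR adjusted p = 2.9e-05). In all of these with values by library, the highest DAPT library lay below the lowest DMSO library. grm4 fell least of the genes described here, by 0.50 on the log2 scale (SE 0.10).

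In the muscle nicotinic class 1 of 5 genes was higher (20%), none was lower and 4 did not pass, with a median of 0.05. That higher share was near the 22.4% of all genes tested, of which 24.3% were lower. The receptor is built in vertebrates from alpha, beta and delta subunits with either a gamma subunit, in fetal muscle, or an epsilon subunit, in adult muscle; this swap is best known from mammals. The gene that rose, chrng (gene 100536659), encodes the gamma subunit and read 4.11, 3.89 and 4.88 CPM in DMSO and 12.4, 11.1 and 10.5 with DAPT. Every DAPT library was above 2 times every DMSO library, and the means of 4.3 ± 0.518 and 11.3 ± 0.951 (SD, n = 3 each) gave 1.40 ± 0.12 (edgeR adjusted p = 2.16e-06). The epsilon subunit gene chrne (445315) read 14.1, 14.7 and 12.4 against 12.1, 13.9 and 12.7 CPM (-0.08 ± 0.09, edgeR adjusted p = 0.487).

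The shared subunits gave values as close. chrna1, the acetylcholine-binding alpha subunit gene (30725), read 20.1, 20.2 and 17.3 CPM against 17.7, 21.8 and 20.5 (0.06 ± 0.09, edgeR adjusted p = 0.642). chrnd read 14.4, 14.9 and 11.4 against 13.7, 13.2 and 14.1 (0.01 ± 0.10, edgeR adjusted p = 0.946), and chrnb1 5.02, 4.84 and 4.42 against 4.4, 5.56 and 4.84 (0.05 ± 0.13, edgeR adjusted p = 0.779). Per transcript length, chrng was at 3.4 ± 0.648 TPM and chrne at 9.28 ± 0.691 TPM in DMSO, and with DAPT they lay side by side at 7.95 ± 0.75 and 7.85 ± 0.464 TPM. The ratio of chrng to chrne CPM, again a measure chosen after the values were seen, was 0.293, 0.265 and 0.395 in DMSO and 1.02, 0.796 and 0.827 with DAPT.

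Among genes of nerve-muscle junction assembly, 1 of 8 found was lower (12.5%) and 4 were higher (50%), with a median of 0.27. Of all genes tested, 24.3% were lower and 22.4% higher. The higher count of the junction genes ran from 3 to 5 when a library was left out. rapsn, whose product clusters the muscle nicotinic receptor, rose from 4.17 ± 0.177 to 6.45 ± 0.331 CPM (0.63 ± 0.12, edgeR adjusted p = 0.000835), and lamb2, a laminin of the junction's matrix, was at 0.43 ± 0.10. etv5b, an ETS transcription factor gene, was the lower one, at -0.44 ± 0.06. Of 16 skeletal muscle markers, 7 were higher (43.8%) and none lower, with a median of 0.19. Their summed levels were 10861 to 14102 TPM in DMSO and 12933 to 16013 TPM with DAPT. Without DMSO replicate 3, 5 of those markers were higher and 3 lower. The part of skeletal muscle content in the chrng value was not tested.

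**Figure D2:**
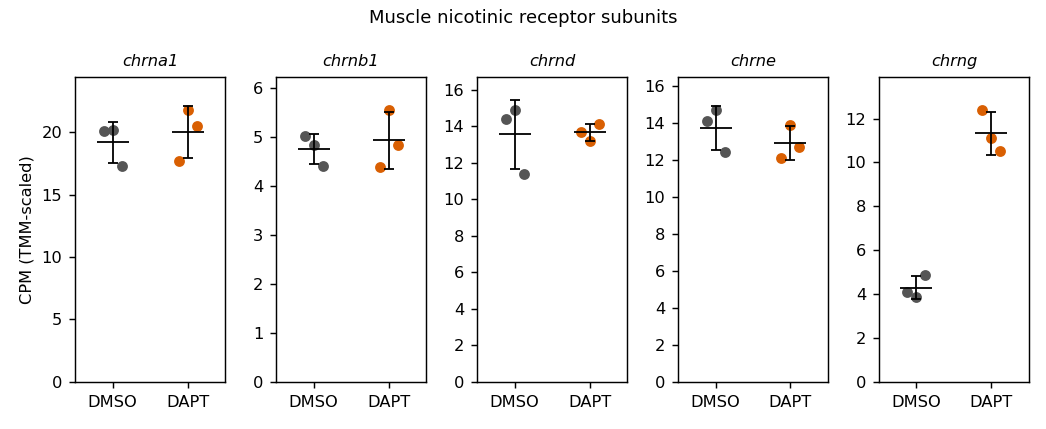
CPM of the 5 muscle nicotinic subunit genes in each library (points; the black line is the mean and the whiskers the SD of 3 libraries), with a y axis from 0 for each gene. The chrng points rise from between 3.89 and 4.88 to between 10.5 and 12.4, and the points of chrna1, chrnb1, chrnd and chrne overlap between DMSO and DAPT.

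The other nicotinic receptor genes, of neurons and hair cells, went both ways, with a median of -0.61. Of 13 tested, 7 were lower (53.8%), 2 higher (15.4%) and 4 did not pass, against 24.3% lower and 22.4% higher of all genes. The lower ones included chrna6, a subunit known in mammals from dopamine neurons and the visual pathway, at 1.91, 1.8 and 3.88 CPM against 0.861, 0.927 and 0.799 (-1.56 ± 0.32, edgeR adjusted p = 0.00185). Its groups were apart, and DMSO replicate 3 was about 2 times the other DMSO libraries. chrnb3b was at -1.50 ± 0.40, chrna10a at -1.30 ± 0.35 and chrna4b at -0.95 ± 0.24. The call on chrnb3a (-0.61 ± 0.19, edgeR adjusted p = 0.0201) was lost without DMSO replicate 3, at -0.33 (edgeR adjusted p = 0.0684), and without DAPT replicate 2 or 3. The count of lower genes in this class was 4 without DMSO replicate 3, DAPT replicate 2 or DAPT replicate 3, and with a minimum of 1 CPM. Without DMSO replicate 3, 4 of 13 were lower and 1 higher, with a median of -0.33. That lower share was nearer to the 22.9% of all genes in the same fit.

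The 2 that rose were chrna3 and chrna5, subunits of the ganglionic receptor of autonomic neurons in mammals. chrna3 read 2.82, 3.47 and 2.65 CPM against 4.83, 4.34 and 5.27, with no overlap (0.69 ± 0.15, edgeR adjusted p = 0.00262). chrna5 read 4.64, 4.89 and 4.42 against 7.22, 5.32 and 5.97, also apart (0.41 ± 0.14, edgeR adjusted p = 0.0274), but its call was lost without DAPT replicate 1 (0.283, edgeR adjusted p = 0.136) and without DAPT replicate 3, DMSO replicate 1 or DMSO replicate 3. chrnb4, the beta subunit gene that joins them in ganglia, was at -0.10 and did not pass (edgeR adjusted p = 0.703). Of 9 autonomic and chromaffin neuron markers, 3 were lower (33.3%) and 4 higher (44.4%), against 24.3% and 22.4% of all genes. When a library was left out, 2 to 3 were lower and 3 to 5 higher. These markers summed to 179 to 189 TPM in DMSO and 177 to 197 TPM with DAPT. Most of that sum was hand2 (113 and 125 TPM), which the heart muscle list also holds. The other markers' mean levels summed to 69.5 TPM in DMSO and 64.9 TPM with DAPT, on a scale without the TMM correction of the CPM. Their part in the chrna3 and chrna5 values was not tested. Genes of acetylcholine synthesis, transport and breakdown were lower in 3 of 5 (60%) and higher in none. Without DAPT replicate 2 their lower count was 2. The gene ache, of the enzyme that clears acetylcholine, was at -0.54 ± 0.06 and slc18a3a, of the acetylcholine vesicle transporter, at -0.78 ± 0.15.

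Muscarinic receptors, of which the second type slows the heart under the vagus nerve, had 8 members, and 4 passed the filter. chrm2a (gene 352938) rose: it read 1.72, 1.33 and 1.78 CPM in DMSO and 4.21, 4.24 and 4.37 with DAPT. These values stood on 36, 28 and 39 reads against 88, 87 and 93. Every DAPT library was more than 2 times the highest DMSO library, and the means of 1.61 ± 0.245 and 4.28 ± 0.0869 (SD, n = 3 each) gave 1.40 ± 0.16 (edgeR adjusted p = 2.53e-05). chrm3a, of the type that drives glands and smooth muscle through calcium release, fell, at 3.4, 3.85 and 3.97 against 2.53, 2.24 and 2.45 CPM (-0.63 ± 0.15, edgeR adjusted p = 0.00431). In both the groups were apart. chrm4a, the most abundant, read 6.32, 7.12 and 6.61 against 6.93, 6.59 and 6.35 CPM, overlapping values (-0.01 ± 0.11, edgeR adjusted p = 0.928), and chrm1b was at 0.05 ± 0.23. The 4 not tested, chrm1a, chrm2b, chrm5a and chrm5b, had group means from 0.112 to 0.399 CPM. chrm2b, the other copy of chrm2, was at 0.235 ± 0.0489 CPM in DMSO and 0.209 ± 0.103 with DAPT.

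Alpha adrenergic receptors constrict vessels (the first type) or brake transmitter release (the second). They were lower in 6 of 9 tested genes (66.7%), against 24.3% of all genes, with a median of -0.94. Without DMSO replicate 3, 5 of 9 were lower, against 22.9% of all genes, with a median of -0.85. adra1bb (gene 492486) had the second largest fall of all members, at 2.15, 1.71 and 1.92 CPM in DMSO and 0.382, 0.439 and 0.517 with DAPT. The groups lay far apart (-2.09 ± 0.25, edgeR adjusted p = 3.57e-05). Its copy adra1ba was at 0.17 and did not pass. adra1d read 8.33, 9.5 and 7.94 against 4.02, 3.95 and 3.43 CPM, again with no overlap (-1.17 ± 0.12, edgeR adjusted p = 1.16e-05). adra1ab was at -1.36 ± 0.28 and adra2c at -1.41 ± 0.28. adra2b, at -0.30 ± 0.17, did not pass (edgeR adjusted p = 0.175), but did without DMSO replicate 2 (-0.443, edgeR adjusted p = 0.0457). DMSO replicate 3 was the highest DMSO library in 3 of the 10 alpha members.

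Beta adrenergic receptors raise cyclic AMP, and in vertebrates the first and second types quicken and strengthen the heartbeat. Of the 4 members, 2 were lower (50%, against 24.3% of all genes) and 2 did not pass. adrb3a (gene 558248), known in mammals as the receptor of fat cells, was the most abundant at 11.2 ± 0.65 TPM in DMSO. It read 12.2, 13.2 and 12.9 CPM against 7.98, 7.51 and 7.99, groups clearly apart with little spread (-0.70 ± 0.09, edgeR adjusted p = 5.14e-05). adrb1 read 3.4, 4.89 and 2.96 against 3.59, 2.88 and 3.15 CPM (-0.22 ± 0.19, edgeR adjusted p = 0.368), and adrb2a 3.16, 3.61 and 3.51 against 3.44, 4 and 4.09 (0.17 ± 0.14, edgeR adjusted p = 0.365). Both overlapped between groups. adrb2b read 4.16, 4.27 and 3.79 against 3.11, 3.07 and 3.24 CPM; its groups were apart, but its call (-0.37 ± 0.14, edgeR adjusted p = 0.0392) was lost when any 1 library other than DMSO replicate 3 was left out, with adjusted p from 0.0768 to 0.0973.

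**Figure D3:**
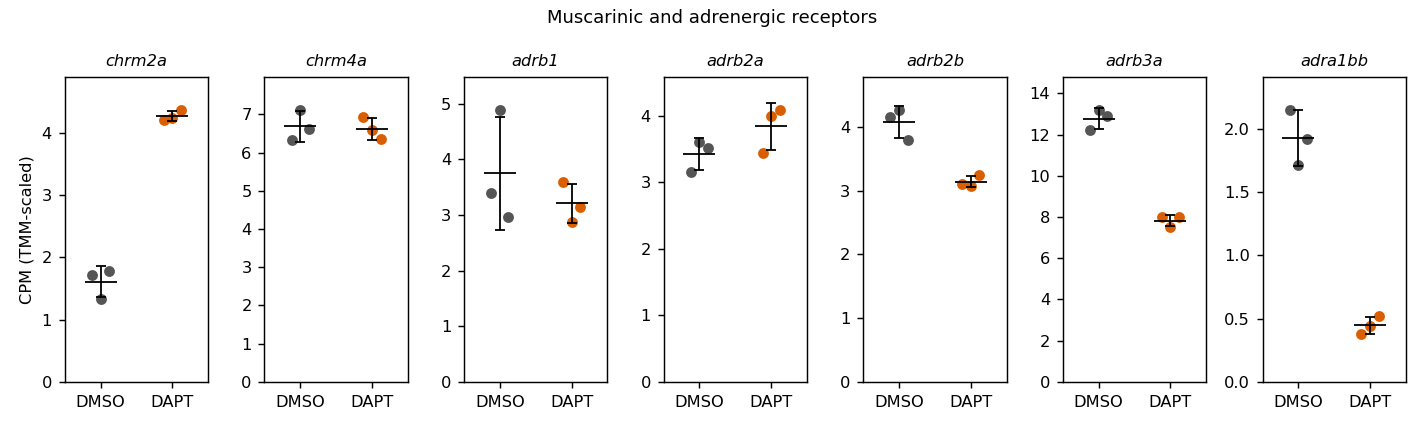
CPM of the muscarinic and adrenergic genes chosen for display in each library (points; the black line is the mean and the whiskers the SD of 3 libraries), with a y axis from 0 for each gene. chrm2a is higher with DAPT (4.21 to 4.37 against 1.33 to 1.78), adra1bb and adrb3a are lower, and adrb1 and adrb2a overlap between the groups.

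Downstream genes that carry adrenergic and muscarinic signals in heart muscle were lower in 5 of 21 (23.8%) and higher in 7 (33.3%), with a median of 0.04, against 24.3% and 22.4% of all genes, so the lower share was at the background. Without DAPT replicate 2, 2 were lower. The smallest p-values were of pde3a, a cyclic AMP phosphodiesterase (0.57 ± 0.06), pln, phospholamban, the brake on the calcium pump (0.70 ± 0.08), and gnai1, an inhibitory G protein subunit (0.39 ± 0.05). Chosen after its values were seen, kcnj5, a subunit of the potassium channel that the second muscarinic receptor opens in the mammalian atrium, rose from 0.614 ± 0.183 to 2.18 ± 0.499 CPM (1.83 ± 0.28, edgeR adjusted p = 0.000239). Its partner gene kcnj3a, at -0.34, did not pass, and kcnj3b, at -0.39, was lower. All 13 heart muscle markers were higher, with a median of 0.86, summing to 5255 to 6359 TPM in DMSO and 9133 to 9497 TPM with DAPT. Their part in the chrm2a, kcnj5 and beta adrenergic values was not tested.

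Dopamine receptors were lower in 6 of 10 tested genes (60%) and higher in 1 (10%), with a median of -0.73. Of all genes tested, 24.3% were lower and 22.4% higher. drd2b, of the inhibitory family that includes the main autoreceptor, read 4.11, 4.7 and 4.61 CPM against 2.63, 2.29 and 2.63, groups apart (-0.83 ± 0.14, edgeR adjusted p = 0.000544), and drd4a of the same family was at -1.03 ± 0.22. The calls on drd3 (-0.86 ± 0.26) and drd1b (-0.76 ± 0.23) were lost when some libraries were left out: drd3 had an adjusted p of 0.0845 without DAPT replicate 3 and 0.0579 without DMSO replicate 2, and drd1b 0.0765 without DMSO replicate 3, 0.06 without DAPT replicate 2 and 0.0541 without DAPT replicate 3. The class count of lower genes was 3 without DMSO replicate 3 or DAPT replicate 3, and 4 without DAPT replicate 2 or DMSO replicate 1. It was 4 by DESeq2 as well, and none was called higher in these fits. Without DMSO replicate 3, the 3 of 10 that were lower stood near the 22.9% of all genes. drd5a, of the cyclic AMP raising family, read 17.5, 17.8 and 16.8 CPM against 18.9, 21.9 and 20.4. Its groups were apart, but its rise of 0.23 ± 0.08 (edgeR adjusted p = 0.0252) was not called without DAPT replicate 2 (0.183, edgeR adjusted p = 0.106), DAPT replicate 3, DMSO replicate 1 or DMSO replicate 3. Genes of catecholamine synthesis, transport and breakdown were lower in 4 of 10 (40%) and higher in 3 (30%), against 24.3% and 22.4% of all genes; without DAPT replicate 2 the lower count was 2, so neither share stood clear of the background. slc6a2, the noradrenaline transporter, was at -0.85 ± 0.12, comtb, a degrading enzyme, at -0.66 ± 0.11, and mao, which breaks down monoamines and had counts that were not whole, at 0.50 ± 0.06.

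Of 14 tested serotonin receptor genes, 4 were lower (28.6%), 2 higher (14.3%) and 8 did not pass, with a median of -0.38. The lower share was near the 24.3% of all genes. Those that rose were htr3a and htr3b, the genes of the only serotonin receptor that is an ion channel. htr3a (gene 571641) read 0.861, 0.855 and 1 CPM in DMSO and 2.63, 2.73 and 3.2 with DAPT (1.65 ± 0.20, edgeR adjusted p = 3.31e-05), on 18, 18 and 22 reads against 55, 55.9 and 68. htr3b (gene 571632) read 0.144, 0.665 and 0.411 against 1.43, 1.56 and 1.08 CPM (1.72 ± 0.38, edgeR adjusted p = 0.00273), the largest rise of any member but on 2.99 to 14 reads in DMSO. In each the groups were apart. Some counts were not whole (55.9 for htr3a, and 2.99 and 8.99, among others, for htr3b). These were taken as reads divided with other genes, though the counting rules are not given and such genes were not identified. The htr3b level in particular is therefore uncertain.

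The serotonin receptors that fell were of the G protein type. htr1b, whose product restrains serotonin release, read 1.29, 1.04 and 1.46 CPM against 0.335, 0.293 and 0.517 (-1.71 ± 0.31, edgeR adjusted p = 0.00071), and htr1d 2.39, 2.8 and 2.83 against 1.43, 1.22 and 1.55 (-0.93 ± 0.18, edgeR adjusted p = 0.0014). Neither overlapped between the groups. The htr2cl1 call (-0.45 ± 0.15, edgeR adjusted p = 0.0234) was lost without DAPT replicate 1, DAPT replicate 3 or DMSO replicate 1, with adjusted p from 0.0604 to 0.0959. The class count of lower genes was 2 without DAPT replicate 1 and by DESeq2. Genes of serotonin synthesis and transport were higher in 3 of 5 (60%) and lower in none, against 22.4% and 24.3% of all genes. slc6a4a, the serotonin transporter, rose from 92 ± 6.86 to 135 ± 2.44 CPM (0.56 ± 0.06). tph1b was at 0.87 ± 0.11 and tph1a at 1.15 ± 0.18. These last are both copies of the hydroxylase gene known in mammals from the gut and pineal gland.

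**Figure D4:**
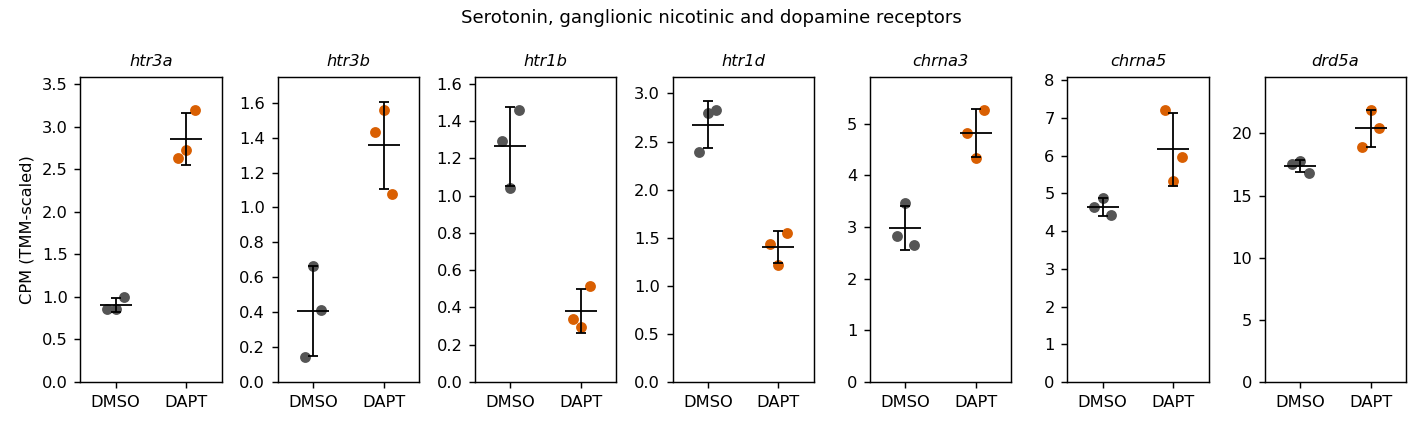
CPM in each library (points; the black line is the mean and the whiskers the SD of 3 libraries) of htr3a, htr3b, htr1b, htr1d, chrna3, chrna5 and drd5a, with a y axis from 0 for each gene. All DAPT points lie below the DMSO points for htr1b and htr1d and above them for the others; for htr3a they run from 2.63 to 3.2 against 0.855 to 1.

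Among the genes that make, clear and anchor the inhibitory and excitatory transmitters and their receptors, more were lower than higher. Of all genes tested, 24.3% were lower and 22.4% higher. Of 13 genes for GABA synthesis, transport and the type B receptor, 8 were lower (61.5%) and 1 higher (7.69%), with a median of -0.92. The lower ones included the transporter slc6a1b, from 68.9 ± 5.81 to 18.5 ± 0.494 CPM (-1.90 ± 0.07), and the synthesising enzyme gad1b, from 62 ± 9.71 to 23.2 ± 1.1 CPM (-1.42 ± 0.10). The higher one, named after its values were seen, was abat, the enzyme that breaks down GABA, from 79 ± 6 to 111 ± 9.53 CPM (0.49 ± 0.07, edgeR adjusted p = 0.000212). None of the type B receptor genes fell or passed with all 6 libraries, and they too were named after their values were seen. They were gabbr1a at 0.40 ± 0.17, gabbr1b at 0.11 ± 0.12 and gabbr2 at 0.14 ± 0.18. Without DMSO replicate 3, 2 of the 13 genes of this list were higher. Both glycine transporter genes fell, slc6a5 by 1.41 on the log2 scale (SE 0.12) and slc6a9, whose counts were not whole, by 1.18 (SE 0.09). Of 6 inhibitory scaffold genes 5 were lower (83.3%), among them nlgn2a at -1.05 ± 0.10 and the gephyrin gene gphna at -0.46 ± 0.07. Of 14 genes for glutamate transport and delta receptors 11 were lower (78.6%) and 1 higher (7.14%). The higher one was slc17a8, a vesicular glutamate transporter gene named after its values were seen (0.94 ± 0.26). The higher count ran from 0 (without DAPT replicate 1) to 2 when a library was left out. The glial transporter slc1a2b fell from 423 ± 12.9 to 102 ± 6.53 CPM (-2.05 ± 0.06). Of 20 tested scaffold and auxiliary genes of glutamate receptors 11 were lower (55%) and 4 higher (20%), the higher share near that of all genes. Among the lower ones were shank1, a postsynaptic scaffold, at -0.76 ± 0.06 and cnih2, an AMPA receptor partner, at -0.99 ± 0.11. The 4 higher ones, also named after their values were seen, were shank3a (0.58), shank3b (0.38), pick1 (0.36) and grip1 (0.18); without DAPT replicate 1 or DAPT replicate 3 the higher count was 2.

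Most nervous system markers were called lower as well, where 24.3% of all genes tested were. Of 17 neuron markers 15 were lower and none higher (median -0.74), with summed levels of 754 to 945 TPM in DMSO and 504 to 519 TPM with DAPT; snap25a, of the vesicle fusion machinery, was at -0.88 ± 0.06, and elavl3 (-0.07) and elavl4 (-0.10), RNA-binding proteins of young neurons, did not pass. Of 10 glia markers 9 were lower (median -0.92), from 1153 to 1411 TPM down to 339 to 398 TPM, and of 14 retina markers 13 were lower (median -1.39), from 3855 to 6362 TPM down to 1355 to 1411 TPM. The glia list shares slc1a2b with the transporter list. The part of neuron, glia and retina content in the receptor values was not tested.

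Summed over members, the receptor transcripts were at 437, 448 and 551 TPM in the DMSO libraries and 287, 275 and 295 TPM with DAPT, without overlap. Sums in TPM lack the TMM correction of the CPM. Ionotropic glutamate receptors summed to 160, 162 and 219 against 88.4, 83.3 and 90.9 TPM, and glycine receptors to 28.8, 32.1 and 40.1 against 16.7, 15.6 and 16.9. Adrenergic receptors stood at 39.5, 43.9 and 43.4 against 26.7, 25.4 and 27 TPM. All these sums were lower in every DAPT library. The muscle nicotinic sum, at 46.4, 48 and 42.6 against 44.2, 47.6 and 46.8 TPM, overlapped. The muscarinic sum, at 7.35, 7.79 and 8.46 against 8.04, 8.87 and 8.54 TPM, overlapped as well.

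**Figure D5:**
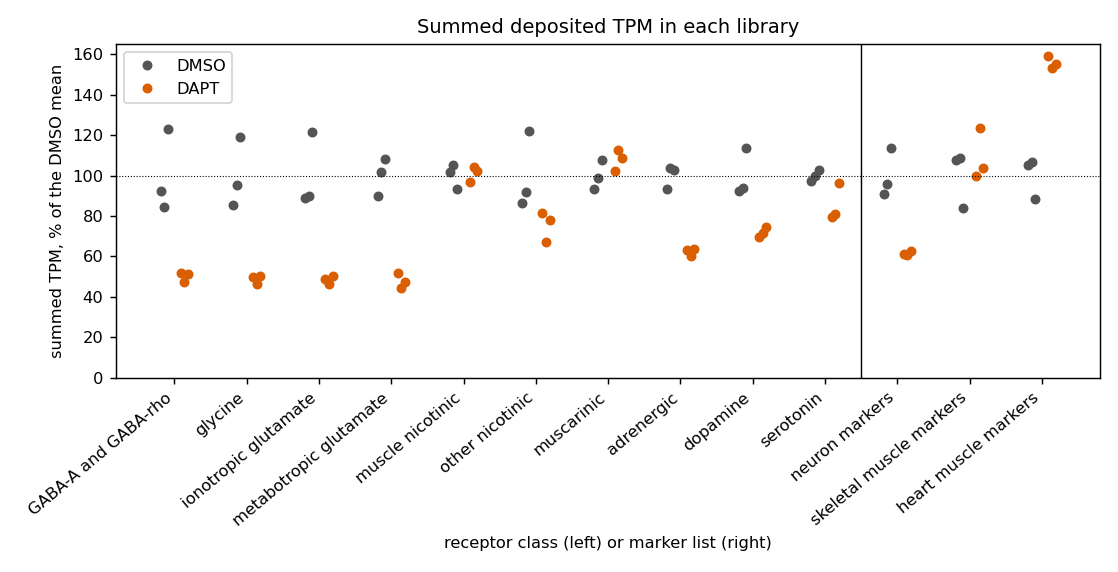
Summed deposited TPM of each receptor class (left) and marker list (right) in each library, as percent of that sum's DMSO mean. Glutamate, GABA and glycine receptor sums lie lower with DAPT, as does the neuron marker sum; the muscle nicotinic and muscarinic sums overlap between groups and the heart muscle marker sum is higher with DAPT.

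Single levels ran over a wide range in DMSO, from 0.0733 to 52.2 TPM, with a median of 1.75; 90 members reached 1 TPM and 11 reached 10 TPM. After grin1b and grin1a came gria3a at 18.7 ± 5.28, glrbb at 18 ± 2.57, chrna1 at 15.5 ± 1.04 and gria2a at 14.9 ± 3.1 TPM. Neighbours among these last 4 lay within their SD of each other. gria4b at 12.2 ± 1.76, chrnd at 11.6 ± 1.42, gria2b at 11.4 ± 0.692 and adrb3a at 11.2 ± 0.65 TPM were lower, also within their spread. Those named are subunits of channels of central synapses and of the nerve-muscle junction, and the G protein coupled receptor of adrb3a.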

How the data were processed

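Total RNA (TRIzol) from 3 DMSO and 3 DAPT libraries of zebrafish was sequenced. The submitters' processing notes name STAR 2.7.1a, featureCounts 1.6.0, edgeR and build GRCz11; the annotation, strand setting and counting rules are not given in the sources used here. The authors deposited, per gene, read counts, TPM and FPKM. Between 15.2% and 16% of the deposited counts per library were not whole, so they were treated as estimated counts and rounded. Deposited TPM, per the file headers, served for levels between genes and for summed levels, and the deposited FPKM were not used. The TPM were not scaled by TMM, so differences between the groups in TPM and in CPM are on different scales. For example, chrm4a had means of 6.68 CPM in DMSO and 6.62 CPM with DAPT, but 2.89 and 2.57 TPM.

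Rounded counts were filtered with filterByExpr, scaled by TMM and tested with edgeR 4.0.16 (glmQLFit, glmQLFTest; R 4.3.3) on 4 residual degrees of freedom. The SE is the log2 fold change over the root of F. CPM values use the TMM-scaled library sizes. The procedure was tested on simulated data with known changes placed only in genes above a minimum read level, so that test did not cover members with few reads. Same-numbered libraries were not treated as pairs in this fit. Their deviations from the group means correlated at 0.00755, -0.0709 and -0.0296, which cannot show whether they shared a batch. Alternatives were DESeq2 1.42.0, its size factors, library totals, limma-voom (limma 3.58.1), no filter, a minimum of 1 CPM, unrounded counts, a replicate block and leaving out each library.

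Members and lists were chosen with earlier results of these data known. Named members are, per class, the 4 with the smallest p and the 2 with the highest mean TPM, all muscle nicotinic, muscarinic and beta adrenergic genes, and any called with an absolute log2 fold change of at least 1 (70 in all, not all printed). For pathway lists, up to 3 genes with the smallest p are named. Outside this rule, gabrb4, glra4a, grin2bb, grin3ba, gria1a, gria1b, grik2, chrnb4 and adra1ba were also named after their values were seen. The closing sections name further members by changed calls or by gaps between copies. Of the 137 members, 7 had counts that were not whole, taken here as shared reads: gabrr1, gabrr2b, chrnb2b, chrm1a, drd2l, htr3a and htr3b. Symbols are those of the deposited table; 136 gene identifiers matched RefSeq, where 6 carry another symbol (gabrb2 is gabrb2a, chrna7 chrna7a, chrna9 chrna9a, chrnb2a chrnb5a, chrnb2b chrnb2 and chrnb2l chrnb5b), and htr3b did not match. Coordinates were not used. Some members are counted but not reported by name here.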

Additional observations from a re-analysis of the deposited data

How the results depend on the processing

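No receptor gene that was called, in the fit described above or in an alternative, changed sign between them. Some genes called in neither did change sign, such as adra1ba, which ran from -0.08 to 0.42 over the fits. Of the 70 called lower, 52 kept the call in every alternative that gave a value and 18 lost it in at least 1; of the 7 called higher, 5 kept it, and chrna5 and drd5a lost it. Of the 43 that did not pass, 10 passed in at least 1 alternative. Lower and higher counts were 59 and 5 by DESeq2, 74 and 5 with library totals, 69 and 7 by limma-voom, 66 and 7 with a minimum of 1 CPM, and 70 and 7 with DESeq2's size factors or without rounding. Leaving out a library gave 57 to 70 lower and 5 to 7 higher. The replicate block gave 67 and 7, and among the genes described in the report it ended only the call on adrb2b (adjusted p = 0.0662). Library totals moved the median of all genes to -0.102 and that of the members to -0.79, and split all calls into 3362 higher and 6973 lower, where TMM gave 4940 and 5362. By DESeq2, 14 called members did not pass, among them grik4, adrb2b, drd3, drd5a, chrna5, htr2cl1 and grm5a (adjusted p = 0.0521). Depth limited the low genes: 17 members had too few reads to be tested after the filter.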

Other observations

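Of 33 pairs of a and b copies among the members, 27 had both copies tested. In 12 pairs both copies were lower. In 12 pairs only a single copy was lower and the other did not pass, and in 3 pairs neither passed. Of all tested members 58.3% were lower, against 24.3% of all genes. Whether the pair counts depart from what the members' share alone would give was not tested. The difference between copies was not tested either. The 3 smallest gaps in log2 fold change were between gria4a and gria4b (-0.89 and -0.87), drd4a and drd4b (-1.03 and -0.98), and htr2aa and htr2ab (-0.89, which did not pass, and -0.94). The drd4b call was lost without DAPT replicate 1 or 2 or DMSO replicate 1 or 3 (adjusted p up to 0.122 over the alternatives), and the htr2ab call without any 1 DAPT library, without DMSO replicate 3 and by DESeq2 (up to 0.0983). The 3 largest were between adra1ba and adra1bb (0.17 and -2.09), gabra6a and gabra6b (-2.61 and -1.19, the latter not passing), and glra4a and glra4b (-0.38 and -1.78).

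The share of receptor genes called lower varied with level. Among members with a mean under 1 CPM, 6 of 21 tested were lower (28.6%, against 19.6% of all genes at that level). Between 1 and 3 CPM it was 19 of 35 (54.3% against 23.6%), between 3 and 10 CPM 32 of 45 (71.1% against 27.5%), and at 10 CPM or more 13 of 19 (68.4% against 23.6%).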
